A study of Arabidopsis thaliana with 24 samples.

Results

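The trehalose-6-phosphate synthase (TPS) genes followed here were *TPS1*, *TPS5*, *TPS6*, *TPS7*, *TPS8*, *TPS9*, *TPS10* and *TPS11* of *Arabidopsis thaliana*. They were picked by locus number as a family, and all 8 were found among the 28775 genes of the deposited table. The RNAseq samples were whole shoots, 1 plant to a library of polyadenylated RNA, with 3 plants in each of 8 groups and 24 libraries in all. The groups combined Col-0 wild type or *nrt1.13* with a hydroponic supply of 2 mM KNO3 (normal nitrate) or 0.2 mM KNO3 (low nitrate, with KCl in place of the missing potassium salt) and with harvest at 16 or 25 days. In *nrt1.13* the gene *NRT1.13*, of the NRT1/PTR transporter family, is disrupted by T-DNA. The study found little or no nitrate transport by its protein in *Xenopus* oocytes. The mutant plants sequenced came from this 1 insertion line, without a second allele or a complemented line. For flowering time the study did use a second allele and complemented lines. The labels count the days from germination in some places and from sowing in others.

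Trehalose-6-phosphate (T6P) is made from UDP-glucose and glucose-6-phosphate by TPS enzymes and is turned into trehalose by T6P phosphatases (TPPs). In plants T6P is present in traces and follows the level of sucrose, so that it is regarded as a signal of sugar status. It inhibits the energy-sensing kinase SnRK1 in growing tissue, and plants with little T6P flower late. *TPS1* belongs to class I and encodes the main enzyme that makes T6P in *Arabidopsis*, without which embryos and the switch to flowering fail. *TPS5* to *TPS11* form class II: their proteins carry a synthase-like and a phosphatase-like domain, little or no enzyme activity has been shown for them, and they are thought to have regulatory roles. Several class II genes are known to respond to sugar and light at the level of transcript.

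The values were read counts scaled to the size of the library (CPM), and 100% of them came out as whole multiples of the value of 1 read in their library, so the reads behind each could be recovered. The libraries held 23608279 to 46155689 reads (median 35030938). Tests were run on log2(CPM + 0.1) with limma over 15108 genes that reached 2 CPM in each library, and a gene was called where its *P*, adjusted by Benjamini-Hochberg over these genes, did not exceed 0.05. The comparisons share plants, since each group enters several of them. All 8 TPS genes passed the filter in all 24 libraries, with 174 to 3694 reads per gene and library. Because the replicates were single plants, the *P* values measure the spread between plants of 1 experiment. Transcripts of *NRT1.13* were lower in *nrt1.13* in all 4 conditions, with log2 fold changes of -1.35 under low and -1.13 under normal nitrate at 16 days and of -1.22 and -1.02 at 25 days (adjusted *P* of the average 9.55e-09). They ranged from 2.19 to 4.65 CPM in the 12 mutant plants and from 7.07 to 10.2 CPM in the 12 wild-type plants. The 5 photosynthesis genes taken to mark green shoots summed to 35774 to 43948 CPM. Of the 6 root marker genes, *CASP1*, *CASP2*, *MYB36*, *IRT1* and *NRT2.1* did not pass 1.95 CPM in any library, and *PYK10*, a beta-glucosidase of roots and young shoots, stood at 65.2 to 273 CPM. A shoot holds many cell types, and fewer cells of a type cannot be told apart from less RNA per cell.

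The 8 genes lie on 3 chromosomes, here by TAIR10.1. *TPS1* (AT1G78580) is at chr1:29552340-29560912 on the minus strand and has the longest structure, with 19 exons in its longest transcript. The class II genes have 3 to 5 exons in theirs: *TPS7* (AT1G06410) at chr1:1954674-1958866, *TPS9* (AT1G23870) at chr1:8432179-8435656, *TPS6* (AT1G68020) at chr1:25496928-25500584, *TPS5* (AT4G17770) at chr4:9876172-9880386 and *TPS11* (AT2G18700) at chr2:8108898-8112010 on the plus strand, and *TPS10* (AT1G60140) at chr1:22176934-22181740 and *TPS8* (AT1G70290) at chr1:26470795-26474833 on the minus strand. The coding sequences run from 851 codons in *TPS7* to 942 in *TPS1*. Aligned pairwise, the coding sequence of *TPS1* was 56.7% to 61.1% identical to those of class II. Within class II the closest pair was *TPS8* and *TPS9* with 81.1%, and *TPS10* came next with 72.4% to *TPS8* and 72.2% to *TPS9*. *TPS5* and *TPS6* shared 71.0%. No stretch of 50 bases in the longest transcripts of the 8 genes occurred at a second place in the chromosome sequences. Spliced transcripts of other genes were not searched. Of the 8 genes, 3 overlap a gene on the opposite strand, and the sources used here do not state whether strand was used in the counting. The end of *TPS1* overlaps *RHM1*, which stood at 142 to 206 CPM, so that the 2 genes could share reads if strand was ignored. *RHM1* changed by -0.06 on the log2 scale between 16 and 25 days where *TPS1* changed by 0.22, and the correlation of the 2 genes over 24 libraries was -0.09. The partner of *TPS5*, *AT4G17780*, reached at most 0.026 CPM, and that of *TPS6*, *AT1G68030*, at most 1.36 CPM.

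*TPS7* had the most transcripts for its length. Divided by the length of the longest transcript, its mean over 24 libraries was 22.1 CPM per kb, followed by *TPS5* with 11.6, *TPS1* with 11.6, *TPS6* with 5.85, *TPS8* with 4.79, *TPS11* with 3.95, *TPS9* with 3.65 and *TPS10* with 2.60 CPM per kb. *TPS7* was above *TPS5* in 24 of 24 libraries and *TPS1* above *TPS6* in 24 of 24. *TPS5* and *TPS1* could not be ordered, since *TPS5* was above *TPS1* in 12 of 24 libraries and below it in the others. *TPS6* was above *TPS8* in 22 libraries, *TPS8* above *TPS11* in 20, *TPS11* above *TPS9* in 16 and *TPS9* above *TPS10* in 23. The place of *TPS1* depended on the transcript taken as its length: divided by the shortest of its 4 annotated transcripts, its mean was 19.1 CPM per kb. Of the sum of all 8 genes per kb, *TPS1*, the class I gene, made up 15.5% ± 0.55 (SD, n = 3) in wild type at 0.2 mM and 16 days, the lowest group mean, and 19.8% ± 0.75 (SD, n = 3) in *nrt1.13* at 0.2 mM and 25 days, the highest. These shares were taken with the longest transcript of each gene, so their size depends on that choice as well.

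The group means differed most in ratio for the genes at the lower end. The spread between plants of a group also enters this ratio and was not taken out of it. The ratio of the highest to the lowest of the 8 group means was 2.03 for *TPS11*, 1.63 for *TPS9* and 1.49 for *TPS10*. It was 1.33 for *TPS8*, 1.29 for *TPS5* and *TPS1*, 1.23 for *TPS7* and 1.19 for *TPS6*. The other 3 TPS genes of class I, *TPS2*, *TPS3* and *TPS4*, reached at most 0.032, 0.032 and 0.25 CPM and were not tested.

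**Figure D1:**
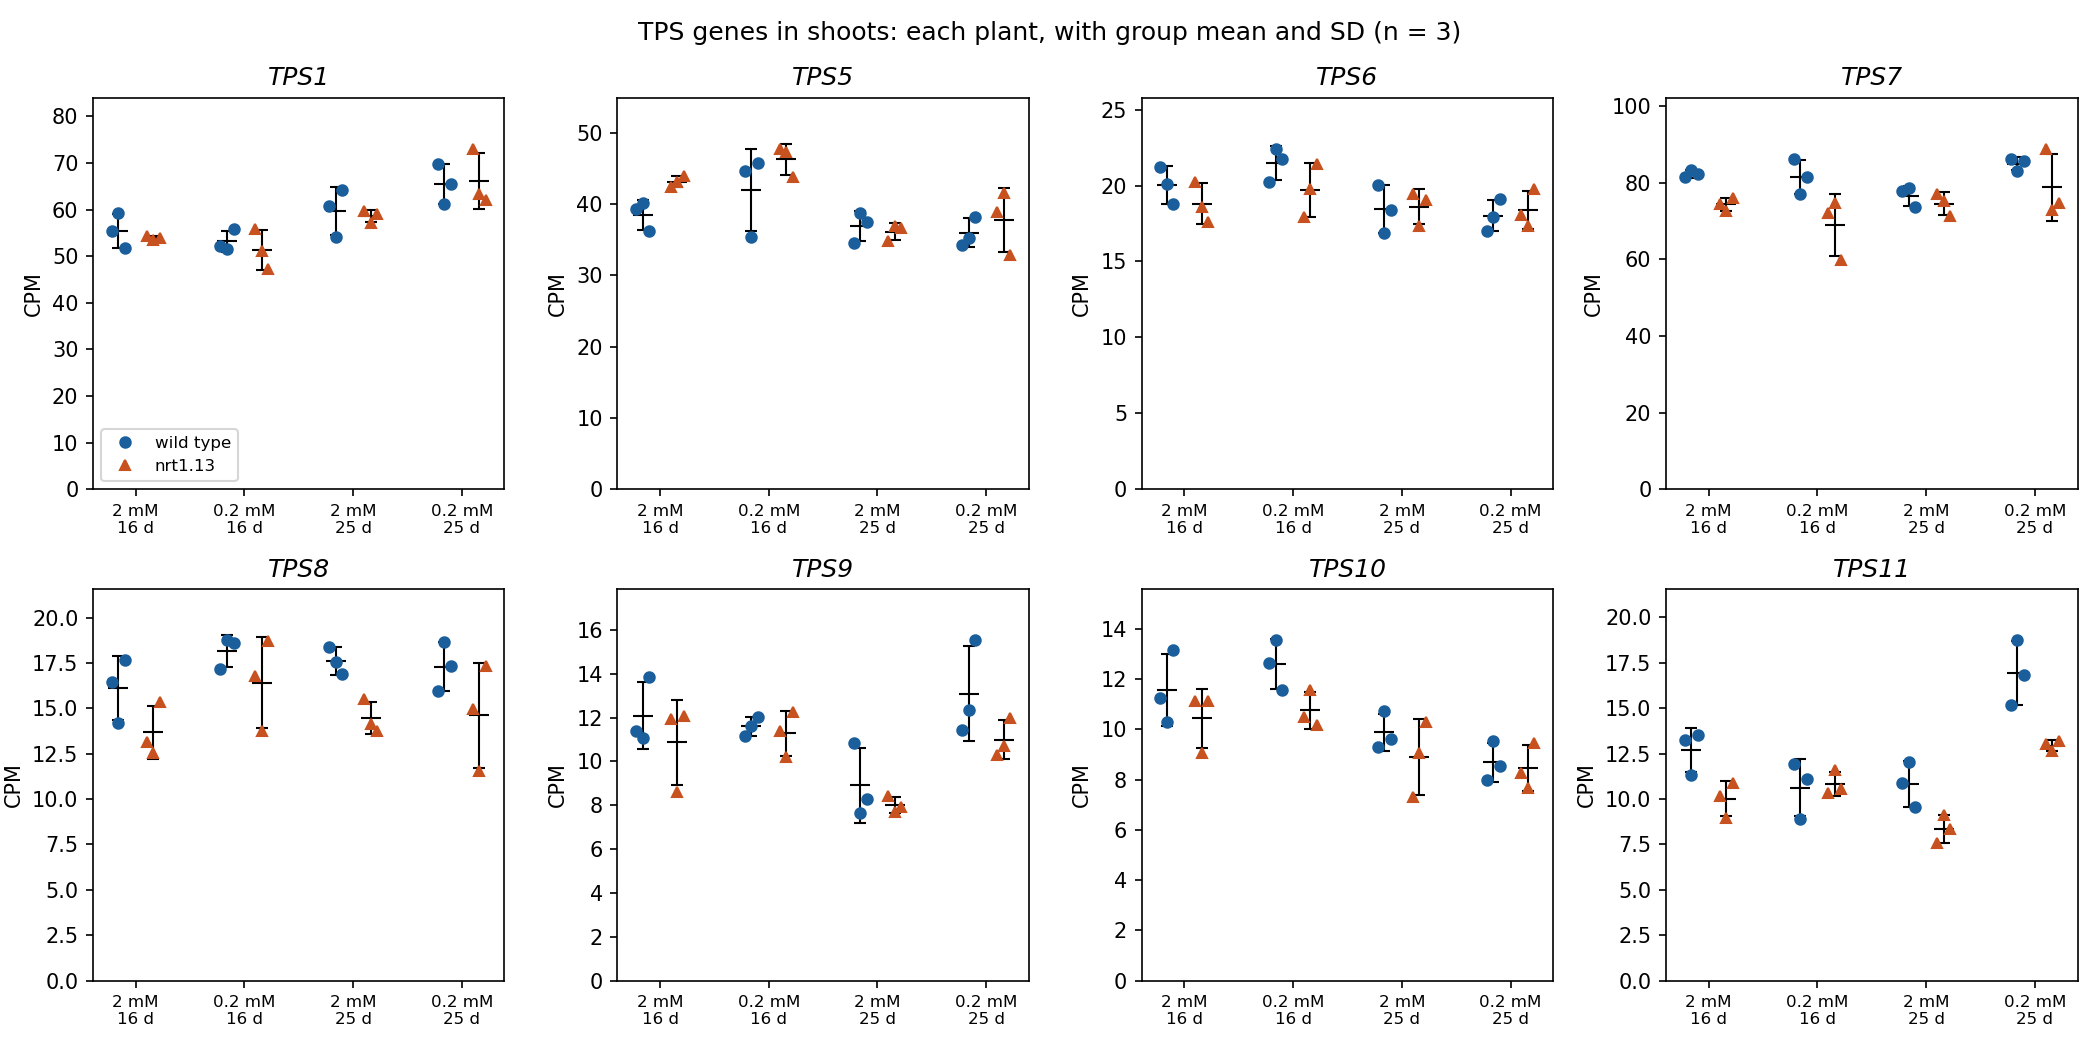
Transcript level of each TPS gene in CPM (vertical axis, from 0) in every plant, for both genotypes (blue circles wild type, orange triangles *nrt1.13*) at 2 or 0.2 mM KNO3 and 16 or 25 days. Bars show the mean and SD of 3 plants: *TPS11* was at 12.6 to 18.7 CPM in the 6 plants at 0.2 mM and 25 days and at 7.59 to 12.1 CPM in the 6 plants at 2 mM and 25 days, and *TPS6* ran from 16.9 to 22.4 CPM over all 24 plants.

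The first question was whether the transcripts followed the nitrate supply. The 3 genes taken as a check of the supply, the nitrate reductases *NIA1* and *NIA2* and the nitrite reductase *NIR1*, were not called by limma between the supplies within any genotype and day (at an unadjusted *P* of at most 0.05, 2 of 3 in wild type and 1 of 3 in *nrt1.13* at 16 days, and none at 25 days). Averaged over genotypes and days, *NIA2* was higher at low nitrate by 0.13 (adjusted *P* 0.00761), and *NIA1* (-0.08) and *NIR1* (-0.06) did not pass the test. The response of *NIA1* differed between the days by 0.32 (adjusted *P* 0.0176). At 25 days *TPS11* and *TPS9*, both of class II, were higher at low than at normal nitrate in both genotypes, while none of the 8 genes was called at 16 days in either genotype. In wild type at 25 days, *TPS11* stood at 15.2, 18.7 and 16.8 CPM in the plants with 0.2 mM KNO3 and at 10.9, 12.1 and 9.54 CPM in those with 2 mM. In *nrt1.13* at 25 days it stood at 13.0, 12.6 and 13.2 CPM with 0.2 mM and at 7.59, 9.10 and 8.37 CPM with 2 mM. All low-nitrate plants lay above all normal-nitrate plants in both genotypes. For *TPS11* and the genes below, the share of all genes without overlap between the supplies is not given here. The log2 fold change of *TPS11* was 0.64 (SE 0.11, adjusted *P* 6.35e-05) in wild type and 0.63 (SE 0.11, adjusted *P* 8.43e-05) in *nrt1.13*.

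*TPS9* followed the same order at a smaller size. In wild type at 25 days it stood at 11.4, 12.3 and 15.5 CPM with 0.2 mM KNO3 and at 10.8, 7.63 and 8.27 CPM with 2 mM. In *nrt1.13* it stood at 10.3, 10.7 and 12.0 CPM with 0.2 mM and at 8.40, 7.71 and 7.93 CPM with 2 mM. The groups did not overlap in either genotype, although 1 wild-type plant with 2 mM came close to the lowest plant with 0.2 mM. The log2 fold change was 0.55 (SE 0.14, adjusted *P* 0.00186) in wild type and 0.45 (SE 0.14, adjusted *P* 0.00991) in *nrt1.13*.

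These 2 of 8 genes were called higher at 25 days beside a background of 18.9% of all genes called higher in wild type and 19.1% in *nrt1.13*. No TPS gene was called lower. The other 6 changed by -0.19 to 0.15 on the log2 scale in wild type and by -0.06 to 0.17 in *nrt1.13*, and none passed the test. *TPS7* in wild type (log2 fold change 0.15, adjusted *P* 0.108) and *TPS1* in *nrt1.13* (0.17, adjusted *P* 0.0722) had plants that did not overlap between the supplies. The share of all genes without such overlap is not given here, so this is a description of the plants only. For *TPS5*, *TPS6* and *TPS8* the values at 25 days lay within -0.04 to 0.06 in both genotypes. The 95% interval of *TPS8*, the gene closest in sequence to *TPS9*, was -0.28 to 0.22 in wild type and -0.25 to 0.25 in *nrt1.13*. Averaged over genotypes and days, *TPS9* (0.25, SE 0.07, adjusted *P* 0.00376) and *TPS11* (0.28, SE 0.06, adjusted *P* 0.000276) were again the members called higher, beside 21.6% of all genes.

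At 16 days 0 of 8 genes passed the test in wild type, where 6.20% of all genes were called in either direction, and 0 of 8 in *nrt1.13*, where 2.83% were called. These shares rested on single plants: the 937 genes called in wild type became 116 to 1201 with 1 library left out, and the 427 in *nrt1.13* became 60 to 458. The count was 0 as well with edgeR and with DESeq2 on the recovered reads. At an unadjusted *P* of at most 0.05 there was 1 gene in each genotype, beside 23.5% of all genes in wild type and 20.9% in *nrt1.13*: *TPS11* in wild type, with a log2 fold change of -0.26 (95% interval -0.49 to -0.03, limma), and *TPS8* in *nrt1.13*, with 0.26 (0.01 to 0.51). *TPS11* stood at 11.9, 8.89 and 11.1 CPM with 0.2 mM and at 13.2, 11.3 and 13.5 CPM with 2 mM in wild type at 16 days. These groups overlapped, and in direction they ran against the difference seen at 25 days.

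**Figure D2:**
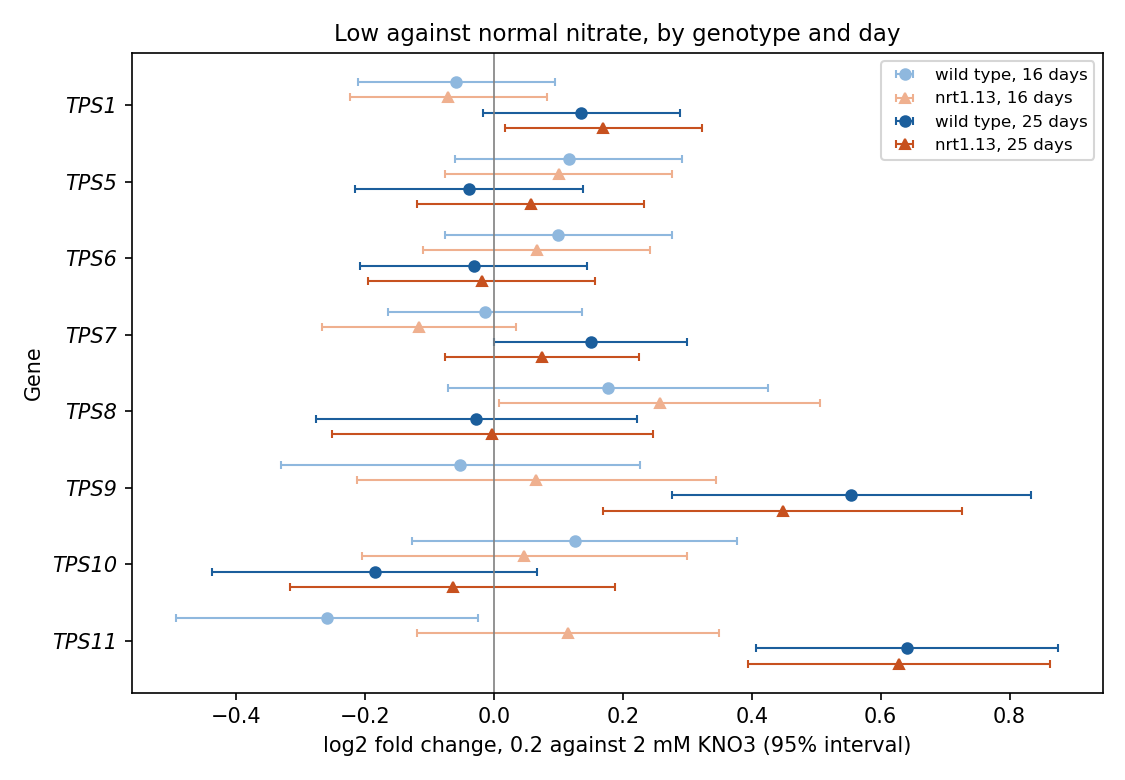
Log2 fold change of each TPS gene (vertical axis) at 0.2 against 2 mM KNO3 (horizontal axis) with its 95% interval, for wild type and *nrt1.13* at 16 days (pale) and 25 days (dark), 3 plants against 3 each. The intervals of *TPS9* and *TPS11* at 25 days lie above 0 in both genotypes, at 0.45 to 0.64, and those at 16 days are centred between -0.26 and 0.11.

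Whether the response to nitrate itself differed between the days was tested as an interaction averaged over the genotypes. It was higher at 25 than at 16 days for 4 of 8 genes: *TPS11* by 0.71 (SE 0.11, adjusted *P* 1.41e-05), *TPS9* by 0.49 (SE 0.14, adjusted *P* 0.00395), *TPS1* by 0.22 (SE 0.07, adjusted *P* 0.0184) and *TPS7* by 0.18 (SE 0.07, adjusted *P* 0.0481) on the log2 scale. None was called in the other direction. The same interaction was called for 47.1% of all genes, and for 21.7% in the higher direction. The median over the 8 genes was 0.04 beside -0.02 over all genes tested. *TPS5*, *TPS6*, *TPS8* and *TPS10* had values of -0.10, -0.11, -0.23 and -0.21 and did not pass the test. The call of *TPS7* held in 6 of 24 fits without 1 library, and those of *TPS1*, *TPS9* and *TPS11* held in all 24.

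Genes of the circadian clock moved in the same contrasts and are given as a mark of the time in the daily cycle at harvest, which the sources used here do not state. The morning genes *CCA1*, *LHY* and *PRR9* did not pass 1.31, 0.835 and 0.624 CPM in any library, and the evening gene *TOC1* stood at 166 to 261 CPM. Among the 5 clock genes tested, the response to nitrate differed between the days by -1.25 for *ELF4*, by -0.19 for *TOC1* and by 0.36 for *GI* on the log2 scale (adjusted *P* 6e-13, 0.0254 and 0.000986), and *PRR5* and *PRR7* were not called. The share of all genes called in this interaction was 47.1%. Averaged over genotypes and days, *PRR7* (0.20) and *GI* (0.14) were higher at low nitrate, beside 21.6% of all genes. From 16 to 25 days, averaged over the conditions, *ELF4* fell by 1.23, *PRR5* by 0.44 and *TOC1* by 0.30, beside 62.0% of all genes called. *PYK10* was higher at low nitrate at 25 days by 0.62 in wild type and 1.01 in *nrt1.13*, and fell by 0.95 from 16 to 25 days. The summed level of the 6 root markers was 65.7 to 82.7 CPM at 2 mM and 25 days, 106 to 174 CPM at 0.2 mM and 25 days, and 142 to 274 CPM at 16 days. Nearly all of this sum was *PYK10*, since no other root marker passed 1.95 CPM in any library. The part of harvest time, and of the tissue that *PYK10* marks, in the TPS results was not tested.

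The second question was how the transcripts changed between 16 and 25 days. Under low nitrate *TPS1*, the T6P-making class I gene, rose in both genotypes, *TPS5* and *TPS10* fell in both, and *TPS11* rose in wild type. In the wild type at 0.2 mM KNO3, *TPS1* went from 52.1, 51.7 and 55.8 CPM at 16 days to 69.8, 61.2 and 65.5 CPM at 25 days. In *nrt1.13* it went from 55.9, 51.1 and 47.3 to 73.0, 63.4 and 62.1 CPM. No plant at 25 days overlapped with one at 16 days. For *TPS1* and the genes below, the share of all genes without overlap between the days is not given here. The lack of overlap is thus a description of the plants only. *TPS1* changed by 0.30 (SE 0.07, adjusted *P* 0.00137) in wild type and by 0.36 (SE 0.07, adjusted *P* 0.000233) in *nrt1.13*. At normal nitrate its changes were 0.11 and 0.12, which did not pass the test. Averaged over the 4 conditions the rise of *TPS1* was 0.22 (SE 0.04, adjusted *P* 1.21e-05), and 11 of 12 plants at 25 days lay above the mean of their 16-day group.

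*TPS10* showed the opposite course. In wild type at 0.2 mM KNO3 it stood at 12.6, 13.5 and 11.6 CPM at 16 days and at 7.96, 9.52 and 8.55 CPM at 25 days, and in *nrt1.13* at 10.5, 11.6 and 10.2 CPM and then at 8.25, 7.65 and 9.45 CPM. The days did not overlap in either genotype. The log2 fold change was -0.53 (SE 0.12, adjusted *P* 0.000688) in wild type and -0.35 (SE 0.12, adjusted *P* 0.0208) in *nrt1.13*. At 2 mM the values were -0.22 and -0.24 and did not pass the test. All 12 plants at 25 days were below the mean of the matching 16-day group, and averaged over the conditions *TPS10* fell by 0.33 (SE 0.06, adjusted *P* 4.17e-05). *TPS5*, also of class II, fell by 0.21 (SE 0.04, adjusted *P* 0.000166) on average, with 11 of 12 plants below, and by 0.30 in *nrt1.13* at 0.2 mM (adjusted *P* 0.00515).

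The course of *TPS9* and *TPS11* depended on the supply. In wild type at 0.2 mM *TPS11* rose from 11.9, 8.89 and 11.1 CPM at 16 days to 15.2, 18.7 and 16.8 CPM at 25 days, a log2 fold change of 0.67 (SE 0.11, adjusted *P* 1.92e-05). In *nrt1.13* at 0.2 mM, plants with 10.3, 11.6 and 10.5 CPM at 16 days stood against plants with 13.0, 12.6 and 13.2 CPM at 25 days. These plants did not overlap either, but the difference of 0.26 missed the threshold (adjusted *P* 0.0611), and it was called with median-ratio scaling, quantile normalization, edgeR and DESeq2. The corresponding values at 2 mM were -0.23 in wild type and -0.26 in *nrt1.13* (adjusted *P* 0.249 and 0.16). *TPS9* fell at 2 mM, by 0.44 (SE 0.14, adjusted *P* 0.0453) in wild type and by 0.42 (SE 0.14, adjusted *P* 0.0489) in *nrt1.13*, while its values at 0.2 mM were 0.16 and -0.04.

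In all, 2 genes were called higher and 3 lower at 25 days in wild type at 0.2 mM (*TPS1* and *TPS11*, then *TPS5*, *TPS6* and *TPS10*), beside 54.3% of all genes called in either direction. In *nrt1.13* at 0.2 mM, 2 were higher and 2 lower (*TPS1* and *TPS7*, then *TPS5* and *TPS10*) beside 50.7%. At 2 mM, 1 gene, *TPS9*, was called lower in each genotype, beside 4.56% of all genes called lower in wild type and 5.88% in *nrt1.13*. Averaged over the conditions, 1 gene was higher and 4 were lower (*TPS5*, *TPS6*, *TPS9* and *TPS10*) beside 62.0% of all genes. *TPS8* was at -0.01 on average with a 95% interval of -0.13 to 0.12. The smaller of these calls rested on the scaling or on single plants. The averaged falls of *TPS6* (-0.12, adjusted *P* 0.0165) and *TPS9* (-0.18, adjusted *P* 0.0205) were not called with median-ratio scaling, quantile normalization, edgeR or DESeq2, and the fall of *TPS9* at 2 mM was called in only 1 of 6 fits without 1 library of the comparison in each genotype. Without the first wild-type plant at 0.2 mM and 25 days, 3 genes in place of 5 were called in wild type, and without the first such *nrt1.13* plant 2 in place of 4.

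**Figure D3:**
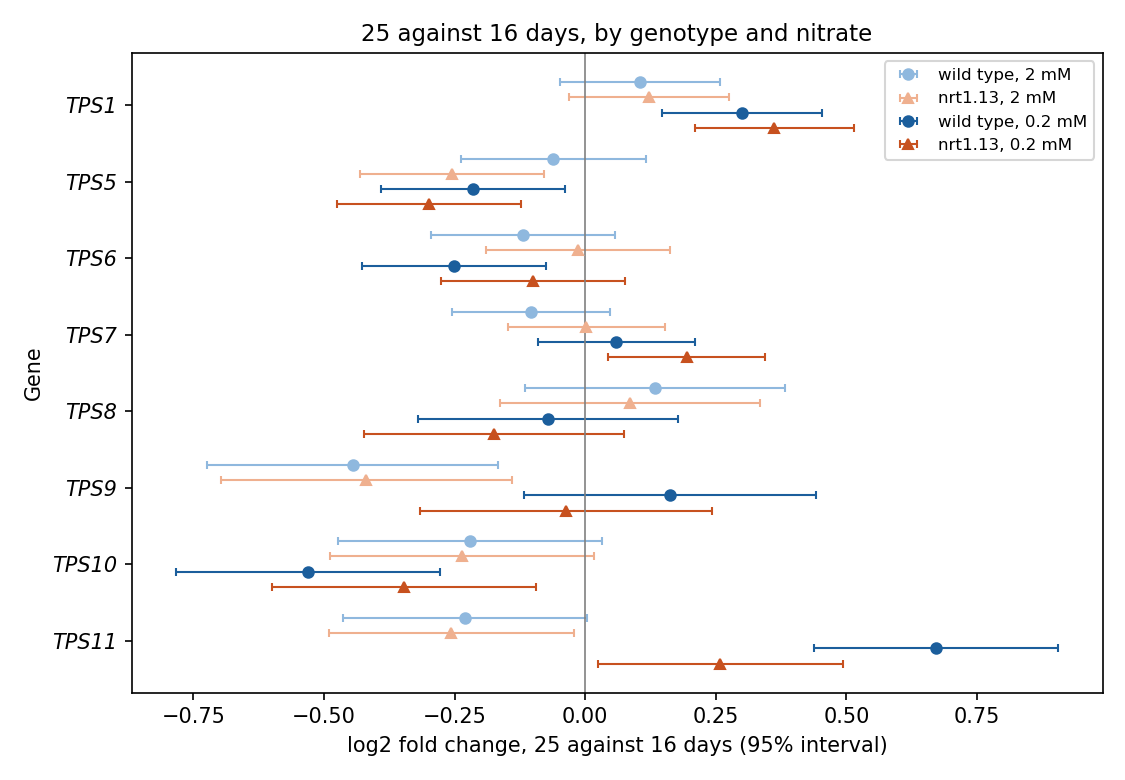
Log2 fold change of each TPS gene (vertical axis) at 25 against 16 days (horizontal axis) with its 95% interval, for wild type and *nrt1.13* at 2 mM (pale) and 0.2 mM KNO3 (dark), 3 plants against 3 each. At 0.2 mM *TPS1* lies at 0.30 and 0.36 and *TPS10* at -0.53 and -0.35, and *TPS11* lies above 0 at 0.2 mM and below 0 at 2 mM.

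The third question was whether the loss of *NRT1.13* changed the family. In each of the 4 conditions taken alone, 0 of 8 genes passed the test with limma, and 0 with edgeR or DESeq2. Among all genes, 0.132% at 16 days and 0.258% at 25 days were called in either direction under low nitrate, and 0.0728% and 0.0860% under normal nitrate. At an unadjusted *P* of at most 0.05 the numbers of TPS genes were 1, 2, 1 and 2 in that order, beside 9.73%, 6.10%, 6.96% and 5.47% of all genes. Averaged over the conditions *TPS11* and *TPS8* were lower in *nrt1.13*, 2 of 8 genes beside 0.682% of all genes called lower, and none was higher. Of the 8 genes 7 had a negative average, with a median of -0.14 beside -0.0031 over all genes tested. The exception was *TPS5*, with 0.09 (SE 0.04, adjusted *P* 0.353).

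*TPS11* was lower in 3 of the 4 conditions without overlap of the plants. At 2 mM and 16 days it stood at 13.2, 11.3 and 13.5 CPM in wild type and at 10.2, 8.95 and 10.9 CPM in *nrt1.13*. At 25 days the plants given above for the nitrate response compare as 10.9, 12.1 and 9.54 with 7.59, 9.10 and 8.37 CPM at 2 mM, and as 15.2, 18.7 and 16.8 with 13.0, 12.6 and 13.2 CPM at 0.2 mM. The lowest wild-type plant exceeded the highest mutant plant each time. For *TPS11* and the genes below, the share of all genes without overlap between the genotypes is not given here. At 0.2 mM and 16 days the genotypes overlapped, with 11.9, 8.89 and 11.1 CPM in wild type and 10.3, 11.6 and 10.5 CPM in *nrt1.13*. The log2 fold changes were -0.34, -0.37, -0.38 and 0.03 in the order given, and their average was -0.26 (SE 0.06, adjusted *P* 0.0123). In 11 of 12 mutant plants *TPS11* was below the mean of the matching wild-type group. The averaged call held in all 24 fits without 1 library and in 10 of 10 alternatives of scaling, filter and test.

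*TPS8* was at 18.4, 17.6 and 16.9 CPM in wild type and at 15.5, 14.1 and 13.8 CPM in *nrt1.13* at 2 mM and 25 days, the condition in which its plants did not overlap. In the other conditions its wild-type plants ranged from 14.2 to 18.8 CPM and its mutant plants from 11.6 to 18.7 CPM, with overlap in each. The averaged log2 fold change was -0.23 (SE 0.06, adjusted *P* 0.0447), and 10 of 12 mutant plants were below their wild-type mean. This call lay close to the threshold: it held in 7 of 24 fits without 1 library and was lost with edgeR, without the filter and without the trend. *TPS7* lay just past it, with -0.14 (SE 0.04, adjusted *P* 0.0515), 10 of 12 plants below, and no overlap at 16 days, where the wild-type plants stood at 77.2 to 86.1 CPM and the mutant plants at 59.8 to 76.1 CPM over both supplies. *TPS7* was called with quantile normalization, with DESeq2 and in 3 of 24 fits without 1 library. *TPS9* and *TPS10* had averages of -0.15 and -0.14 with 11 and 10 of 12 plants below (adjusted *P* 0.321 and 0.276). *TPS1* was at -0.02 (95% interval -0.10 to 0.05). Among the clock genes tested, *PRR5* was lower in *nrt1.13* by 0.15 on average (adjusted *P* 0.0381). The summed level of 5 genes that mark flower buds was 1.18 to 3.43 CPM over the 12 mutant plants and 2.52 to 9.55 CPM over the 12 wild-type plants, without overlap in any of the 4 conditions. None of these 5 genes passed the filter, and they did not move alike. *PI*, *SEP3* and *AP1* had lower means in the mutant throughout. *AP3* had a lower mean there except at 2 mM and 16 days, where it was higher. *AG* had a lower mean only at 0.2 mM and 16 days, and a higher one in the remaining conditions. The part of *PRR5*, or of these 5 genes, in the TPS results was not tested.

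**Figure D4:**
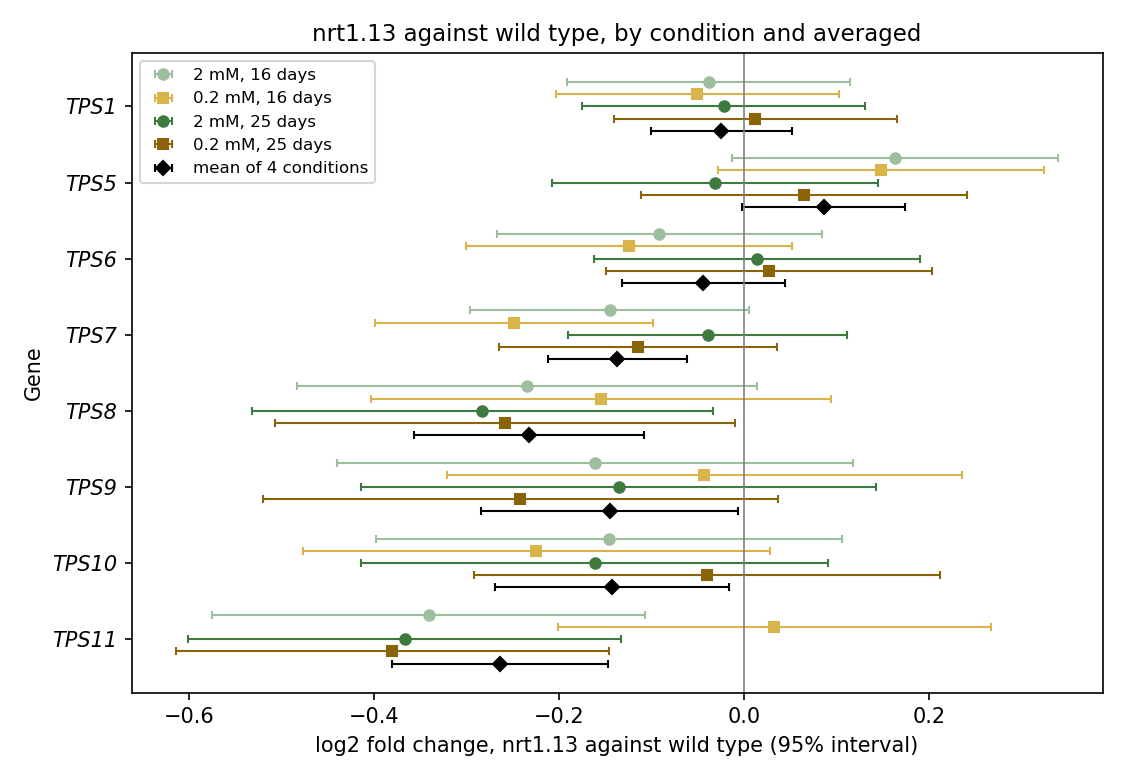
Log2 fold change of each TPS gene (vertical axis) in *nrt1.13* against wild type (horizontal axis) with its 95% interval, in the 4 conditions (3 plants against 3 each) and as their average (black diamonds). The averages of *TPS8* (-0.23) and *TPS11* (-0.26) are called, and *TPS11* at 0.2 mM and 16 days (0.03) lies apart from its other 3 conditions.

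The response to nitrate was not shown to differ between the genotypes, and neither was the course over the days. For the interaction of genotype with nitrate 0 of 8 genes and 0 of all genes (0%) were called, and for that of genotype with day 0 of 8 beside 0.0794% of all genes. No TPS gene reached an unadjusted *P* of 0.05 in either interaction, and the count was 0 with edgeR and DESeq2 as well. The largest values were those of *TPS11*: the genotype difference was 0.18 higher at 0.2 than at 2 mM (95% interval -0.05 to 0.41) and 0.22 lower at 25 than at 16 days (interval -0.45 to 0.01). No TPS gene reached a 1.8-fold change in any contrast, the limit used in the study for differential expression.

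The close relatives *TPS8* and *TPS9* differed in their group means. Their ratio is given as a description, since the pair was picked after the values were seen. The CPM of *TPS9* divided by that of *TPS8*, over the 6 plants of both genotypes, had at 16 days a lowest, median and highest value of 0.689, 0.781 and 0.908 under normal and of 0.619, 0.653 and 0.741 under low nitrate. At 25 days these values were 0.434, 0.544 and 0.589 under normal and 0.661, 0.705 and 0.924 under low nitrate. The ratio at 2 mM was thus above that at 0.2 mM at 16 days by the median, with overlap, and below it at 25 days without overlap.

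The 250 bases before the annotated start of *TPS9*, *TPS11* and *TPS8* are printed from TAIR10.1 to show what these genes share and do not share there. *TPS9* and *TPS11* were called higher at low than at normal nitrate at 25 days, and *TPS8*, the relative of *TPS9*, was not. They lie at chr1:8431929-8432178 (plus strand), chr2:8108648-8108897 (plus strand) and chr1:26474834-26475083 (minus strand). Capitals mark a TATCCA element, a short sequence known from sugar-regulated genes of rice.
TPS9: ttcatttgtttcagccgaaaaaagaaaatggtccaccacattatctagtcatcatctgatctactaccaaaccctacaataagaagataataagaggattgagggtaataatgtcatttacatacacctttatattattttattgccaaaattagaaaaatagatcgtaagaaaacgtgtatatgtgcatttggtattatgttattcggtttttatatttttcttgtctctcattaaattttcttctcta
TPS11: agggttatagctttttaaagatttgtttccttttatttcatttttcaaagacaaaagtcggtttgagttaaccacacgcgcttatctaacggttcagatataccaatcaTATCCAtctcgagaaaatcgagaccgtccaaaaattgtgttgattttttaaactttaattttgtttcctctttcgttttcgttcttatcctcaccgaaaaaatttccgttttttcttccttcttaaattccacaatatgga
TPS8: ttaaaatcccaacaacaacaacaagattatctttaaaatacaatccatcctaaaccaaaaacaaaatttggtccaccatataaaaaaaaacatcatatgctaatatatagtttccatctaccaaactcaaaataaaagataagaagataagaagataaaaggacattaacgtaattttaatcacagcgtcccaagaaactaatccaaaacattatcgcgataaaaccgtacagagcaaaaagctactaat
Among the 8 genes, TATCCA (either strand) was found in *TPS6*, *TPS10* and *TPS11*, and 13.6% of 27443 promoters of this length hold it. It was thus in *TPS11*, which was higher at low nitrate at 25 days, in *TPS10*, which was not called, and not in *TPS9*. The G-box CACGTG was found in *TPS6* only (6.5% of all promoters). The core ACGT, which overlaps the G-box and is part of many bZIP sites, was in *TPS6*, *TPS8*, *TPS9* and *TPS10* (44.1%). The evening element AAAATATCT (2.4%) and the CCA1-binding sequence AAAAATCT (6.7%) were found in none of the 8 windows. A match of letters is a description and not a binding site.

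The members did not move as a block. Over the 24 libraries, *TPS9* and *TPS11* had a Pearson correlation of 0.63 on the log2 scale, the highest within the family, and *TPS1* and *TPS10* one of -0.72, the lowest. After the group means were removed these values were 0.17 and -0.44. *TPS8* and *TPS9*, whose group means took different courses, had a correlation of 0.38 over the libraries and of 0.54 within groups, the highest within groups of the 28 pairs. The libraries share the study's groups, so such values describe the design as well as the genes. Outside the family, the gene most like each member over the 24 libraries was *AT3G23620* for *TPS1* (0.92), *PES1* for *TPS5* (0.85), *RR2*, a response regulator of cytokinin signalling, for *TPS6* (0.82), *AT5G40450* for *TPS7* (0.91), *RPK2*, a receptor-like kinase, for *TPS8* (0.72), *AT2G45700* for *TPS9* (0.88), *PERK9* for *TPS10* (0.89) and *AT3G63510* for *TPS11* (0.84).

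Of the 10 TPP genes, which encode the enzymes that remove T6P, 5 passed the filter: *TPPA*, *TPPE*, *TPPG*, *TPPH* and *TPPJ*. None was called between the genotypes on average with limma (2 at an unadjusted *P* of at most 0.05). The response of 3 of 5 to nitrate differed between the days, *TPPH* by 0.51 (adjusted *P* 0.0136), *TPPE* by -0.37 (adjusted *P* 0.00876) and *TPPG* by -0.55 (adjusted *P* 0.00781), beside 47.1% of all genes. At 25 days *TPPG* stood at 3.45 to 4.63 CPM (median 4.24) in wild type at 2 mM and at 2.52 to 3.10 CPM (median 2.57) at 0.2 mM, and in *nrt1.13* at 3.47 to 3.80 and 2.20 to 3.08 CPM. The plants did not overlap, and the log2 fold changes were -0.57 and -0.52 (adjusted *P* 0.00807 and 0.0135). The share of all genes without such overlap is not given here. Of the 15108 genes tested, 3039 were called lower at low nitrate at 25 days in wild type and 3154 in *nrt1.13*. *TPPE* was also lower at low nitrate at 25 days in wild type, by 0.30 (adjusted *P* 0.033). In *nrt1.13* its log2 fold change was -0.02 (adjusted *P* 0.908). *TPPJ* ran the other way in *nrt1.13*. At 25 days it stood there at 6.77 to 8.28 CPM at 0.2 mM and at 5.40 to 5.47 CPM at 2 mM. The log2 fold change was 0.42 (adjusted *P* 0.00862), beside 19.1% of all genes called higher. In wild type at 25 days it was 0.12 (adjusted *P* 0.474). The average of *TPPJ* over genotypes and days was 0.24 (adjusted *P* 0.00364), beside 21.6% of all genes called higher. From 16 to 25 days on average, *TPPH* (0.43) and *TPPA* (0.33) rose and *TPPE* fell by 0.31, 3 of 5 beside 62.0% of all genes. *TRE1*, the trehalase that splits trehalose, was at 1.78 to 4.79 CPM, below the filter in some libraries, and was not tested.

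The 6 genes for SnRK1 subunits all passed the filter. Within *nrt1.13* at 25 days, *KIN10*, a catalytic subunit, and *KINB1*, a regulatory beta subunit, were lower at 0.2 than at 2 mM. The differences were 0.22 and 0.24 (adjusted *P* 0.00396 and 0.0235), beside 3154 of 15108 genes called lower. Averaged over genotypes and days, *KIN11*, the other catalytic subunit, and *KINB1* were lower at low nitrate by 0.11 and 0.12 (adjusted *P* 0.0351 and 0.02). Of the 15108 genes tested, 3045 were called lower in this average. From 16 to 25 days on average *KIN11* rose by 0.14, and *SNF4*, *KINB2* and *KINB1* fell by 0.13, 0.16 and 0.20, 4 of 6 beside 62.0% of all genes. Within a condition the largest of these changes was that of *KINB1* in *nrt1.13* at 0.2 mM, which fell by 0.42 (adjusted *P* 0.000184). The response to nitrate differed between the days for *KIN10* by -0.16 (adjusted *P* 0.032), beside 47.1% of all genes called. Among 6 genes induced when carbon is short, 3 passed the filter, and *ASN1*, *SEN1* and *BCAT2* did not. *DIN10*, annotated as a raffinose synthase, stood at 88.6 to 101 CPM in wild type at 0.2 mM and 25 days and at 54.6 to 60.1 CPM at 2 mM and 25 days. At 16 days it ran the other way, with 40.4 to 40.9 CPM at 0.2 mM and 53.5 to 63.5 CPM at 2 mM. Its response to nitrate differed between the days by 1.03 (adjusted *P* 1.31e-09), that of *SEN5* by 0.48 and that of *DRM1*, a dormancy-associated gene, by -0.67, so that the list moved in both directions. This interaction was called for 47.1% of all genes. From 16 to 25 days on average *DIN10* rose by 0.62 and *SEN5* by 0.25, and *DRM1* fell by 0.72, beside 62.0% of all genes called. Of the bZIP factors that act with SnRK1, 3 of 4 were tested. In the interaction of nitrate with day *bZIP63* (0.39) and *bZIP53* (-0.37) were called, beside 47.1% of all genes. *bZIP63* rose by 0.33 from 16 to 25 days on average, beside 62.0% of all genes called. Averaged over genotypes and days, *bZIP11* was higher at low nitrate by 0.14 (adjusted *P* 0.0394), beside 21.6% of all genes called higher. None of these SnRK1, carbon or bZIP genes was called between the genotypes on average with limma, and *KIN10* and *DIN10* reached an unadjusted *P* of 0.05.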

How the data were processed

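The deposited CPM values are a signal made by the authors, who trimmed paired-end reads, mapped them to TAIR10 with CLC Genomics Workbench, kept unique matches with few mismatches and counted them per gene. Per the labels, base calls were made with bcl2fastq 2.17.1.14. Library sums of CPM ran from 968394 to 1038371, and the further scaling behind this is not given in the sources used here. The library kit keeps strand, and reads were mapped in pairs. Whether the count used strand, and whether 1 count is a read or a pair, is not given in the sources used here. Each value was a whole multiple of the step of its library to within 0.000168 of a read, and the filter at 2 CPM lay at 45.5 to 90.8 reads.

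Groups were taken from the labels. One limma 3.58.1 fit (lmFit, eBayes with trend, R 4.3.3) on log2(CPM + 0.1) held all 8 group means with 16 residual degrees of freedom, and *P* values were adjusted by Benjamini-Hochberg over 15108 genes. A fold change is on this scale. The study's own limits, a fold change of 1.8 and an unadjusted *P* of at most 0.05, were an alternative, beside pseudocounts of 1 and 0.5, other filters, scalings and fits, edgeR 4.0.16 and DESeq2 1.42.0 on the recovered reads, and each library left out in turn. The recovered reads differed between all plants of a group by more than sampling noise. The fit was tested on simulated data. The replicate numbers did not pair the plants.

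All 8 members were named. For each, the genes outside the family with the highest correlation were listed, and pathway genes called in the averages or the interaction of nitrate with day were named. The members, the pathway lists and the tests were chosen with earlier results of these data known. Coding sequences, positions, overlaps and upstream bases came from RefSeq's TAIR10.1, and identity was taken from pairwise alignment in Biopython 1.88.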

Additional observations from a re-analysis of the deposited data

Results flagged for a closer look

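The response of 4 TPS genes to nitrate differed between the days when the difference itself was tested (limma, averaged over the genotypes). For *TPS11* the log2 fold change at 0.2 against 2 mM KNO3 was higher at 25 than at 16 days by 0.71 (SE 0.11, adjusted *P* 1.41e-05), with every low-nitrate plant above every normal-nitrate plant at 25 days in both genotypes. For *TPS9* it was higher by 0.49 (SE 0.14, adjusted *P* 0.00395), and its plants at 25 days did not overlap either. The share of all genes without such overlap is not given here. For *TPS1* it was higher by 0.22 (SE 0.07, adjusted *P* 0.0184) and for *TPS7* by 0.18 (SE 0.07, adjusted *P* 0.0481), where neither gene was called within a day. The same test called 47.1% of all genes. Over the alternatives of scaling, filter and test, the adjusted *P* ran from 8.08e-09 to 7.43e-05 for *TPS11*, from 0.00066 to 0.0113 for *TPS9*, from 0.00823 to 0.0302 for *TPS1* and from 0.0242 to 0.0757 for *TPS7*.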

How the results depend on the processing

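Each library was 1 plant, so 3 plants per group set the precision. With either fold-change limit of 1.8 the count of TPS genes called was 0 in all contrasts. The genotype average called 2 genes, and 1 with edgeR, without a filter and without the trend. The day contrast called 3 instead of 5 genes with quantile normalization in wild type at 0.2 mM. At 2 mM it called 0 instead of 1 in both genotypes without a filter, with median-ratio scaling, quantile normalization, no trend or edgeR, and in *nrt1.13* also with a pseudocount of 1, but 2 with only the libraries of the comparison. Leaving out 1 library gave 1 to 3 genes for the genotype average and, for the day contrast, 3 to 5 in wild type and 2 to 4 in *nrt1.13* at 0.2 mM and 0 to 1 in each genotype at 2 mM. It gave 2 to 3 for nitrate on average and in *nrt1.13* at 25 days, 2 in wild type at 25 days, 5 to 6 for the day average and 3 to 5 for the interaction of nitrate with day. The counts of 0 stayed 0 in all these settings. The averaged day change of *TPS8* (-0.01) was 0.0278 with median-ratio scaling, 0.0284 with edgeR, 0.0308 with DESeq2 and 0.0409 with quantile normalization, and -0.0398 to 0.0325 with 1 library left out. The averaged nitrate change of *TPS10* (-0.02) was -0.0528 to 0.0088 with 1 library left out. The cause was not tested. Of 240 averaged values under 10 alternatives, 218 kept their direction and side of the threshold, 7 gained a call, 11 lost one and 4 changed sign. Quantile normalization or median-ratio scaling moved the share of higher calls among all genes by over 10 percentage points in 3 contrasts, from 61.1% to 49.1% for nitrate in *nrt1.13* at 16 days, and from 35.1% to 45.9% and 39.4% to 52.8% for the days at 2 mM in wild type and *nrt1.13*. Among all genes, DESeq2 called 75 and 61 genes between the genotypes at 16 and 25 days under low nitrate and 54 and 25 under normal nitrate, where limma called 20, 39, 11 and 13, and 458 in place of 257 for the average. For genotype with day it called 31 in place of 12. For nitrate at 16 days, limma without a filter called 559 in place of 937 genes in wild type and 168 in place of 427 in *nrt1.13*, where DESeq2 called 825.

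Plants with the same replicate number deviated no more alike than others (median correlation 0.0254 over 84 pairs, against 0.00229 over 168), so the numbers were not used to pair them. With a replicate block, 3 genes were called for the genotype average, the third being *TPS7* (adjusted *P* 0.0354), and the other counts were those of the fit without it.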
